A study of Mus musculus with 4 samples.

Results

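The 9 genes described here encode secreted ligands of the bone morphogenetic protein (BMP) family and proteins that block them. They were chosen by name: the ligands Bmp2, Bmp3, Bmp4, Bmp6 and Bmp7, and the antagonists Nog, Grem1, Bambi and Fst. All 9 were found among the 22913 genes listed for each library. RNA was sequenced from dermal white adipose tissue (dWAT), the fat layer under the dermis that surrounds the lower ends of hair follicles (HFs), microdissected from C57BL/6 mice. The 4 groups were OTD (old mice, telogen, the resting phase of the hair cycle), YTD (young mice, telogen), OAD (old mice, anagen, the growth phase) and YAD (young mice, anagen). All groups share the strain and the tissue, and the labels name no transgene and no drug. Anagen was induced by depilation, that is, by hair plucking, so effects of phase and of plucking cannot be told apart here. The series' protocol gives 18 months for old and 2 months for young mice, whereas the age entry of YTD reads 18 and that of OAD 2. The groups follow the sample titles here. Each group is 1 library, and the study states that tissue of several mice was harvested for each. So no difference between groups has a replicate error or a p-value, and each compares single libraries. A library of pooled tissue also gives 1 level for all cell types together, so fewer cells of a type and less RNA per cell cannot be told apart.

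BMPs bind pairs of type I and type II receptors, which phosphorylate SMAD1, SMAD5 and SMAD9. These SMADs enter the nucleus with SMAD4 and switch on targets such as the ID genes. Noggin (Nog), gremlin 1 (Grem1) and follistatin (Fst) bind ligands outside the cell, and Bambi is a membrane decoy receptor that lacks a kinase domain. In skin, BMP2 and BMP4 are known as signals of the resting phase that hold HF stem cells quiescent, noggin favors entry into anagen, and BMPs also act within the growing hair bulb, where they direct hair shaft differentiation. Which ligands and which antagonists dWAT expresses in each phase and age is the question these genes address.

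Levels are in FPKM, a fragment count corrected for gene length and library size. As whole counts are not analysed here, the lowest values served to estimate each library's depth, roughly 19100000 to 24500000 fragments per library. Intervals below are 95% counting intervals from this estimate. They cover counting error only, not differences between mice or dissections. For features of 500 to 800 bp, among them Nog, Grem1 and Bambi, the same estimate ran from 16600000 to 40200000, so their intervals are rougher. For features of 1000 to 1500 bp, among them Bmp2, Bmp3, Bmp4, Bmp7 and Fst, it ran from 18900000 (YTD) to 30300000 (YAD). The intervals of these genes are thus rough in YAD too. A change is the difference of log2(FPKM + 1) between libraries, so changes of weakly expressed genes come out smaller than as a plain fold. A gene is called higher or lower when this difference is at least 1 in size. The label of the tissue was checked against marker lists. Adipocyte markers were present in each library, with a summed FPKM of 13438 (OTD), 12534 (YTD), 3756 (OAD) and 2737 (YAD). Hair matrix markers summed to 6.38 in OTD and 20.7 in YTD, but to 583 in OAD and 665 in YAD. Skeletal muscle markers were present in each library too, with a sum over 10 genes of 55650 (OTD), 86378 (YTD), 13131 (OAD) and 9824 (YAD). The libraries thus hold RNA of muscle beside fat, and the anagen libraries RNA of the growing hair bulb. The share of the mitochondrial genome's genes in the summed FPKM ranged from 44.7% to 52.7% in telogen and from 14.4% to 18.3% in anagen.

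Between telogen and anagen, 4 of the 9 genes were called higher in anagen at both ages, and none was called lower. These were the ligands Bmp2, Bmp4 and Bmp7 and the decoy receptor Bambi. Of all genes above 0 in YAD or YTD, 32.7% were called in either direction, 16.1% were called higher in YAD and 16.7% lower. For OAD against OTD the shares were 31.7%, 16.1% and 15.6%. The share of these 9 called higher, 4 of 9, is above that background, but they are few and were named for their roles. The median change of the 9 genes was 0.48 in young and 0.69 in old mice, against 0.02 and 0.01 for all genes above 0. Bmp6, Nog and Fst stayed within a change of 1 in both phase comparisons, Bmp3 was at 0.48 and 0.69, and Grem1 was under the floor, the FPKM worth 3 fragments, in each library.

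Bmp2 (ENSMUSG00000027358, chromosome 2 from 133552159 to 133562885 on GRCm38), a ligand that adipocytes around the HF are known to release, measured 1.7 (OTD), 1.2 (YTD), 15.5 (OAD) and 11.9 FPKM (YAD). Both anagen libraries were high and both telogen libraries low. Anagen was 9.86-fold higher in young mice (counting interval 6.73 to 15.4) and 9.11-fold higher in old mice (6.62 to 12.9), changes of 2.55 and 2.61 on the log2(FPKM + 1) scale. Bmp7 (ENSMUSG00000008999, chromosome 2 from 172868012 to 172940321), a ligand related to Bmp6, measured 1.04 (OTD), 1.27 (YTD), 29.1 (OAD) and 26.1 FPKM (YAD). It showed the largest phase change of the 9 genes, 20.5-fold in young mice (14.5 to 30.8) and 28-fold in old mice (19.4 to 43.3). It was a minor ligand in telogen, with 4.76% of the ligand FPKM in OTD and 8.85% in YTD, and the leading one in anagen, where it held 36.9% of the ligand FPKM in OAD and 37.7% in YAD.

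Bambi (ENSMUSG00000024232, chromosome 18 from 3507957 to 3516404) measured 3.33 (OTD), 2.38 (YTD), 32.1 (OAD) and 30.4 FPKM (YAD). It followed the ligands Bmp2 and Bmp7 in being low in telogen and high in anagen at both ages. The fold was 12.7 in young mice (9.02 to 18.2) and 9.62 in old mice (7.26 to 13). The ratio of Bmp2 to Bambi lay between 0.391 and 0.512 in the 4 libraries, so the ligand and the decoy receptor differed by a like factor between phases. Bambi held 29.5% of the antagonist FPKM in OTD and 20.2% in YTD, and 80.7% in OAD and 86.3% in YAD.

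**Figure D1:**
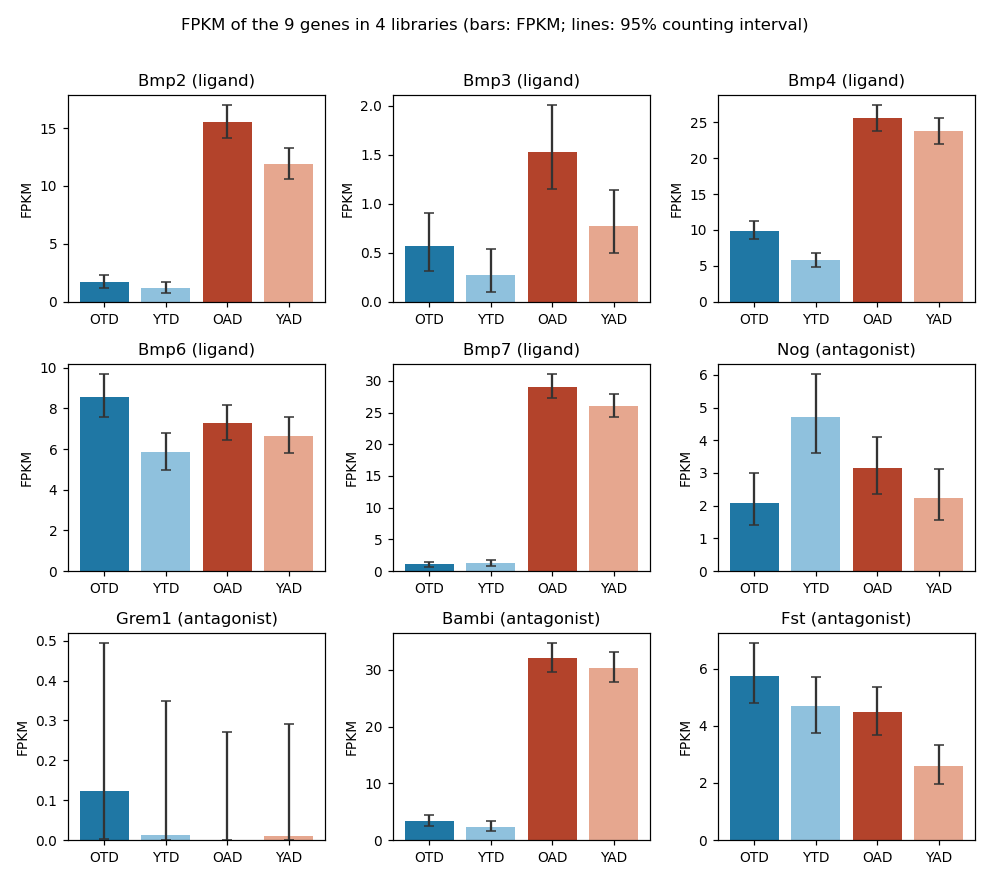
FPKM of the 9 genes in OTD, YTD, OAD and YAD, 1 panel per gene and 1 bar per library, with lines for the 95% counting interval and each vertical axis starting at 0. Bmp2, Bmp4, Bmp7 and Bambi stand higher in both anagen libraries, Nog is highest in YTD at 4.72, and Grem1 is at most 0.122.

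Bmp4 and Bmp6 were the leading ligands of telogen dWAT and parted in anagen. Bmp4 (ENSMUSG00000021835, chromosome 14 from 46383520 to 46390669), which is closely related to Bmp2, measured 9.92 (OTD), 5.77 (YTD), 25.6 (OAD) and 23.7 FPKM (YAD). Anagen was 4.12-fold higher in young mice (3.42 to 5) and 2.58-fold higher in old mice (2.23 to 2.99). Bmp6 (ENSMUSG00000039004, chromosome 13 from 38345716 to 38499728), also known as a regulator of iron metabolism, measured 8.59 (OTD), 5.85 (YTD), 7.27 (OAD) and 6.66 FPKM (YAD). The 4 libraries lay close together, with changes between phases of 0.16 in young and -0.21 in old mice and counting intervals of the fold that reached 1. The value in old mice was positive under TPM and without keratin, keratin-associated protein and melanocyte genes. The ratio of Bmp6 to Bmp4 was 0.866 in OTD and 1.01 in YTD, and 0.284 in OAD and 0.281 in YAD. Of the ligand FPKM, Bmp4 held 45.5% and Bmp6 39.4% in OTD and 40.1% and 40.7% in YTD. In anagen Bmp6 held 9.2% in OAD and 9.63% in YAD.

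The promoter windows of this pair are shown because they are the leading telogen ligands and only one of them was called between phases. They are RefSeq sequence of GRCm38.p6, each 300 bases, 5′ to 3′ on the strand of the gene, with 250 bases before and 50 after the listed start. Capitals mark the GC box GGGCGG, the binding motif of SP1-type factors, searched on both strands, so that it reads CCGCCC where it lies on the other strand. The Bmp4 window is chr14:46390620-46390919 on the minus strand and the Bmp6 window chr13:38345466-38345765 on the plus strand.
Bmp4: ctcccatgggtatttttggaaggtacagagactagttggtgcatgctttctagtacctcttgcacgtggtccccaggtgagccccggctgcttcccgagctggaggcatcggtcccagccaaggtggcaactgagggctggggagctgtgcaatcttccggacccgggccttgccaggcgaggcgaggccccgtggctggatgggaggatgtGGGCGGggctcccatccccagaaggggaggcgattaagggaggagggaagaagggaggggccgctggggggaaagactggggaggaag
Bmp6: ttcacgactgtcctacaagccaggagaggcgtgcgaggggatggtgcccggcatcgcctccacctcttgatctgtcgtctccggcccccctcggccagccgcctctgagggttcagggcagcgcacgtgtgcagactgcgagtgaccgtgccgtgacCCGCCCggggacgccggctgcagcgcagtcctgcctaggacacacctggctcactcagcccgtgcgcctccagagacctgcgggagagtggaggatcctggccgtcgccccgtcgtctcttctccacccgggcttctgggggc
The G and C content was 64% for Bmp4 and 69.3% for Bmp6. Each window holds 1 GC box, at base 213 of the Bmp4 window and base 158 of the Bmp6 window, as 35.7% of all 32851 promoter windows hold at least 1. Neither window holds CTTTGA, a core of the TCF/LEF motif found in 16% of all windows, or GGCGCC, a motif bound by BMP-activated SMADs found in 11.9%. The AP-1 motif TGACTCA, in 5.2% of all windows, and the homeobox core TAATTA, in 5.29%, were also not found in either. The motifs searched do not separate the pair. These are letter matches in this window and say nothing of binding.

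Bmp3 and Grem1 were the least abundant of their sides. Bmp3 (ENSMUSG00000029335, chromosome 5 from 98854439 to 98880960), an atypical ligand that can oppose other BMPs, measured 0.572 (OTD), 0.278 (YTD), 1.53 (OAD) and 0.778 FPKM (YAD). Both anagen libraries lay above both telogen libraries, but the counting intervals of YAD (0.501 to 1.14) and OTD (0.32 to 0.909) overlapped. As a fold, anagen was 2.8 times telogen in young (1.25 to 8.15) and 2.68 times in old mice (1.55 to 5.15), but the values in telogen stand for about 16.3 fragments in OTD and 7.49 in YTD. Grem1 (ENSMUSG00000074934, chromosome 2 from 113746164 to 113758646), a secreted antagonist of BMP2 and BMP4, had an FPKM of 0.122 in OTD, 0.014 in YTD and 0.0103 in YAD, and was listed at 0 in OAD. All 4 values are under the floor, so no fold is given, and a difference was not detectable at this depth.

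Nog and Fst, the secreted antagonists above the floor, ran differently from Bambi. Nog (ENSMUSG00000048616, chromosome 11 from 89300638 to 89302332), whose protein binds BMP2 and BMP4 tightly, measured 2.09 (OTD), 4.72 (YTD), 3.16 (OAD) and 2.24 FPKM (YAD). YTD was the highest library, with a counting interval (3.62 to 6.03) that lay above those of OTD and YAD and overlapped that of OAD (2.37 to 4.11). The phase change was -0.82 in young and 0.43 in old mice, opposite in sign, and the interval of the fold excluded 1 in young mice (YTD over YAD 2.1, 1.37 to 3.26) and included it in old mice (OAD over OTD 1.51, 0.938 to 2.42). The value in young mice depended on the scaling, at -0.18 under TPM and -0.01 without keratin, keratin-associated protein and melanocyte genes. Relative to the shift of all genes under these scalings it was -0.9 and -0.92. Fst (ENSMUSG00000021765, chromosome 13 from 114452262 to 114458730), which binds activins as well as BMPs, measured 5.75 (OTD), 4.68 (YTD), 4.48 (OAD) and 2.59 FPKM (YAD). YAD was the lowest library, and the counting intervals of the other 3 overlapped. Its phase change was -0.66 in young and -0.3 in old mice, and rescaling that leaves out keratin, keratin-associated protein and melanocyte genes turned both signs, as TPM did that in old mice.

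Between old and young mice, none of the 9 genes reached a change of 1 in either phase. Of all genes above 0, 3.6% were called in telogen and 1.18% in anagen, so a count of 0 among 9 is near what the background gives. In telogen the level of 7 of the 9 was greater in OTD, as was that of 7889 of 17230 genes above 0. The median change was 0.29 (all genes -0.03). In anagen the level of 8 was greater in OAD, as was that of 8800 of 17613 genes, and the median was 0.15 (all genes 0.0). Both counts and medians include Grem1, which was under the floor in each library and stood as greater in OTD and lower in OAD. The larger differences were Nog in telogen (-0.89), Bmp4 in telogen (0.69), Fst in anagen (0.61), Bmp3 in anagen (0.51) and Bmp6 in telogen (0.49), and in each of these the counting interval of the fold excluded 1.

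Nog was 2.25-fold higher in YTD than OTD (1.42 to 3.57). In anagen the sign was the other way, with OAD over YAD at 1.41 (0.904 to 2.2), an interval that includes 1. Bmp4 was 1.72-fold higher in OTD than YTD (1.39 to 2.14) and 1.08-fold in OAD over YAD (0.97 to 1.2). Bmp6 was 1.47-fold higher in OTD (1.21 to 1.8) and 1.09-fold in OAD over YAD (0.913 to 1.31). The difference between ages of both ligands was thus larger in telogen than in anagen as a value, which was not tested. Bmp2 was 1.41-fold in OTD over YTD (0.858 to 2.41) and 1.31-fold higher in OAD than YAD (1.13 to 1.51). Bmp7 was 0.816 times in OTD over YTD (0.471 to 1.42) and 1.12 times in OAD over YAD (1.01 to 1.23), and Bambi was 1.4 times in telogen (0.89 to 2.18) and 1.05 times in anagen (0.938 to 1.18). Fst was 1.73-fold higher in OAD than YAD (1.26 to 2.41) and 1.23-fold in OTD over YTD (0.936 to 1.64). The 2 age comparisons share no library, while each phase comparison shares a library with each age comparison.

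**Figure D2:**
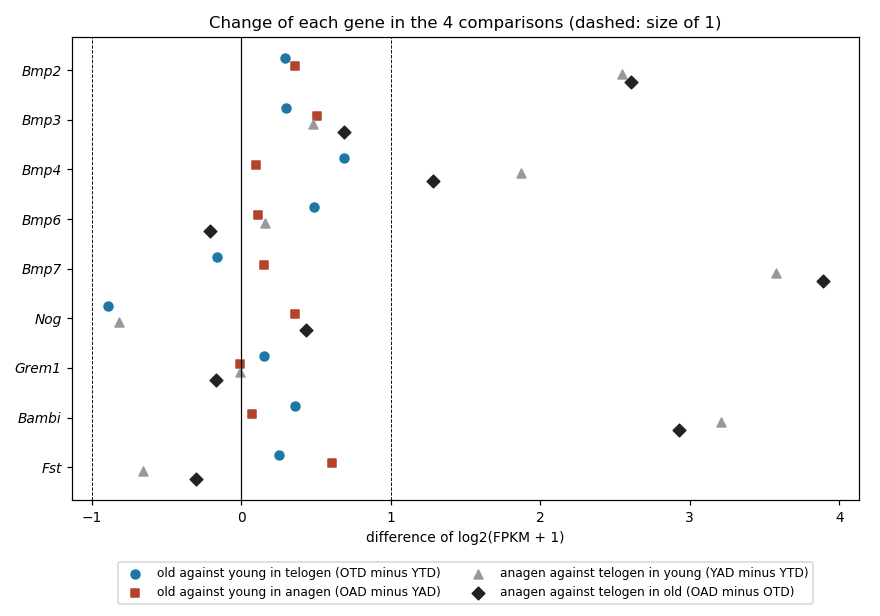
Difference of log2(FPKM + 1) of each gene on the horizontal axis, 4 points per gene for the 4 comparisons, with dashed lines at a change of 1. The phase changes of Bmp2, Bmp4, Bmp7 and Bambi lie to the right of the dashed line, from 1.28 to 3.89, and the age changes of all 9 genes lie between -0.89 and 0.69.

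The scaling between libraries bears on these small differences. Rescaled to TPM, the median of all genes with an FPKM of at least 1 moved to 0.76 for YAD against YTD and 0.58 for OAD against OTD, from 0.03 and 0.05, and to -0.21 for OAD against YAD. Leaving out keratin, keratin-associated protein and melanocyte genes moved it to 0.94, 0.78 and -0.19, and leaving out mitochondrial genes to 0.21, -0.1 and -0.15. In the telogen age comparison it moved to 0.12 without mitochondrial genes. The anagen age changes of Bmp4, Bmp6, Bmp7 and Bambi were negative under these 3 scalings, and ranged from -0.15 to 0.17 over all alternatives tried. Without keratin, keratin-associated protein and melanocyte genes, 5 of the 9 genes were called higher in YAD than YTD (background 44.2%), with Bmp6 added, and 6 in OAD than OTD (40.1%), with Bmp3 and Nog added. Relative to the shift of all genes, each gene except Grem1 kept its sign under all 4 scalings in all comparisons, with 1 exception, Bmp3 in YAD against YTD without keratin, keratin-associated protein and melanocyte genes (-0.03).

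The balance of ligands and antagonists was taken as the summed FPKM of the 5 ligands over that of the 4 antagonists within a library, which no scaling between libraries can change. The ligands summed to 21.8 (OTD), 14.4 (YTD), 79 (OAD) and 69.2 (YAD). The antagonists summed to 11.3 (OTD), 11.8 (YTD), 39.7 (OAD) and 35.2 (YAD). The ratio was 1.93 in OTD (1.65 to 2.27), 1.22 in YTD (1.02 to 1.45), 1.99 in OAD (1.84 to 2.16) and 1.96 in YAD (1.8 to 2.15). YTD stood below the other 3 libraries, which lay within each other's counting intervals. On the log2 scale OTD exceeded YTD by 0.66 (0.32 to 1.01), and OAD exceeded YAD by 0.02 (-0.15 to 0.19). Anagen exceeded telogen by 0.69 in young (0.4 to 0.97) and 0.04 in old mice (-0.22 to 0.3).

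The balance depended on which genes were counted as antagonists. Nog held 40% of the antagonist FPKM in YTD and 18.5% in OTD. Without Nog the telogen difference between ages was 0.22 (-0.16 to 0.61) and that between phases in young mice 0.05 (-0.27 to 0.37). Without Fst the difference between phases was 0.07 in young (-0.28 to 0.42) and -0.81 in old mice (-1.16 to -0.46). Without Bambi, which is not secreted, the ratio was 2.74 in OTD and 1.53 in YTD, against 10.3 in OAD and 14.3 in YAD, and the log2 difference of OAD from YAD was -0.47 (-0.84 to -0.09). Against Nog alone, the ratio of Bmp2 to Nog was 0.814 (OTD), 0.255 (YTD), 4.91 (OAD) and 5.29 (YAD). The ratio of Bmp4 to Nog was 4.74 (OTD), 1.22 (YTD), 8.09 (OAD) and 10.6 (YAD). In both ratios YTD was the lowest library and both anagen libraries were the highest. The ratio of Bmp6 to Nog was also lowest in YTD (1.24), but highest in OTD (4.1), above OAD (2.3) and YAD (2.97).

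**Figure D3:**
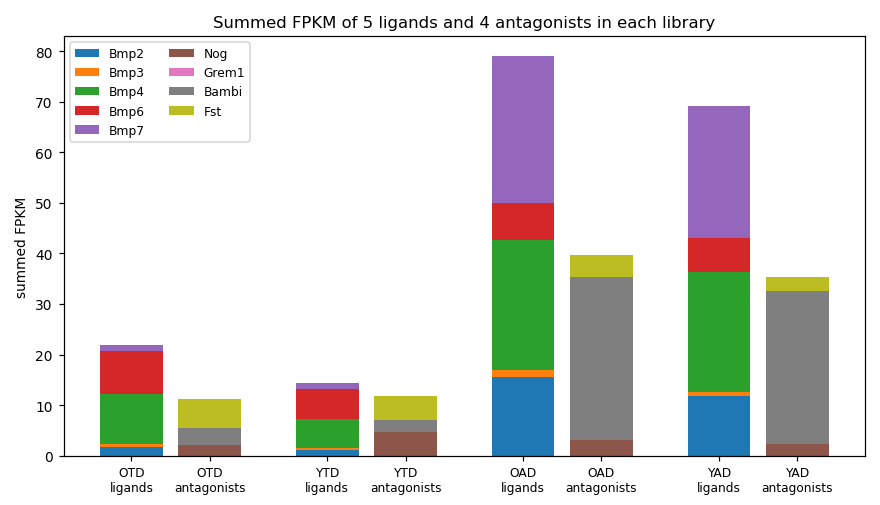
Summed FPKM on the vertical axis for the 5 ligands and the 4 antagonists of each library, with each gene as a colored part of its bar. Bmp4 and Bmp6 make up most of the telogen ligand bars, Bmp7 and Bmp4 lead the anagen ligand bars, and Bambi makes up 80.7% and 86.3% of the anagen antagonist bars.

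Other genes of the pathway were described from lists by role, 56 genes in all. Of those above 0, 23 of 52 were called between YAD and YTD, 11 higher and 12 lower in YAD, and 21 of 53 between OAD and OTD, 7 higher and 14 lower in OAD. Over all genes above 0 the shares called were 32.7% and 31.7%. Between ages, 3 of 52 were called in telogen, where 3.6% of all genes were, and 1 of 53 in anagen, where 1.18% were. Among the other ligands, Bmp8a was called higher in anagen, with an FPKM of 0.181 (OTD), 0.169 (YTD), 9.93 (OAD) and 13.4 (YAD). Gdf5, a ligand known from joint formation, was called lower, with 1.48 in OTD, 1.54 in YTD, 0.139 in YAD and 0 in OAD. Bmp5 had 1.03 (OTD), 0.769 (YTD), 0.169 (OAD) and 0.117 (YAD), and did not reach a change of 1.

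Of 13 other antagonists and modulators above 0, 7 were called in young mice, 5 lower and 2 higher in anagen, and 6 in old mice, 5 lower and 1 higher. The shares called over all genes above 0 were 32.7% and 31.7%. Chrdl1, a chordin-like secreted antagonist, measured 14 (OTD), 10.3 (YTD), 2.61 (OAD) and 2.12 FPKM (YAD). Nbl1 and Dand5, both secreted antagonists of the DAN family, were called lower in anagen at both ages. Chrd, the gene of chordin, was called lower in young mice only (-1.07), and the follistatin-like gene Fstl1 in old mice only (-1.8); the differences between the ages were not tested. Sostdc1, a secreted antagonist of BMP and WNT signals expressed in the HF, had 4.92 (OTD), 3.66 (YTD), 6.91 (OAD) and 19.3 (YAD). It was the 1 pathway gene called between ages in anagen, 2.79-fold higher in YAD than OAD (2.23 to 3.54). It was also called higher in YAD than YTD (2.12), as was Bmper (1.1). Cer1 was called higher in OAD than OTD (1.2), where the telogen value of Cer1 was under the floor, so that it was at least 7.7-fold higher. With all listed ligands over all listed antagonists and modulators the ratio was 0.112 (OTD), 0.0956 (YTD), 0.741 (OAD) and 0.618 (YAD). In OTD, Fstl1 (70.2) and Nbl1 (64.5) made up most of the summed FPKM of 222 below the line.

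Of 11 receptors and coreceptors, 4 were called between phases in young mice and 3 in old mice, all lower in anagen. Of all genes above 0, 32.7% and 31.7% were called in either direction, near these counts, and 16.7% and 15.6% were called lower. Bmpr1a, the main type I receptor of BMP2 and BMP4, measured 20.5 (OTD), 27.2 (YTD), 25.9 (OAD) and 25.9 FPKM (YAD), and Bmpr2, the type II receptor, 10.2, 11.9, 13 and 12.2 in the same order. No receptor or coreceptor was called higher in any comparison. The endothelial receptors Acvrl1 and Eng were called lower in anagen at both ages, and the coreceptor Rgma in young mice (-1.51). The coreceptor Hjv, which skeletal muscle expresses, had 208 (OTD), 449 (YTD), 40.1 (OAD) and 29.4 (YAD), and was called lower in anagen at both ages and in OTD against YTD (-1.11). The muscle markers moved the same way, with negative values for 10 of 10 in OTD against YTD (median -0.67), and their part in this was not tested.

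Of the 8 intracellular SMAD genes listed, the inhibitory Smad6 and Smad7 were the 2 called between phases at both ages. Over all genes above 0 the shares called were 32.7% in young and 31.7% in old mice. Smad6 measured 6.55 (OTD), 7.35 (YTD), 31.2 (OAD) and 31.1 FPKM (YAD), and Smad7 6.28, 4.69, 23.6 and 20.1 in the same order. Smad1 had 12.9 (OTD), 9.18 (YTD), 17.6 (OAD) and 18.8 (YAD) and did not reach a change of 1. Among response genes, the inhibitor of differentiation gene Id1 measured 77.6 (OTD), 47.8 (YTD), 109 (OAD) and 119 FPKM (YAD). Id1, Id2, Id3 and Id4 were each called higher in YAD than YTD (1.3, 1.48, 1.04 and 1.39). None of them was called between OAD and OTD, where the changes were 0.48, 0.45, 0.08 and 0.82. The counting interval of the fold still excluded 1 there for Id1 (1.28 to 1.53), Id2 (1.17 to 1.61) and Id4 (1.5 to 2.2). The difference between the ages was not tested. Between ages, Id4 was called higher in OTD than YTD (1.17). Id1, Id2 and Id3 did not reach a change of 1 there, at 0.69, 0.71 and 0.54. Their intervals of the fold excluded 1 (1.44 to 1.82, 1.35 to 2.05 and 1.32 to 1.61). In OAD against YAD the changes of Id1, Id2 and Id3 were -0.13, -0.33 and -0.42, and that of Id4 was 0.6. Each of these intervals of the fold excluded 1 too. The homeobox gene Msx2, a BMP target also listed as a hair matrix marker, had 0.83 (OTD), 3.25 (YTD), 109 (OAD) and 120 (YAD), and was called lower in OTD than YTD (-1.22). Msx1 was higher in anagen at both ages (3.21 and 2.2). Gata2 and Nfatc1 were lower in anagen at both ages, and Gata6, Hey1 and Atoh8 were called lower in OAD than OTD. Of the activin genes, whose products Fst binds, Inhba was called higher in OAD than OTD (1.35), with an FPKM of 3.51 and 0.767.

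**Figure D4:**
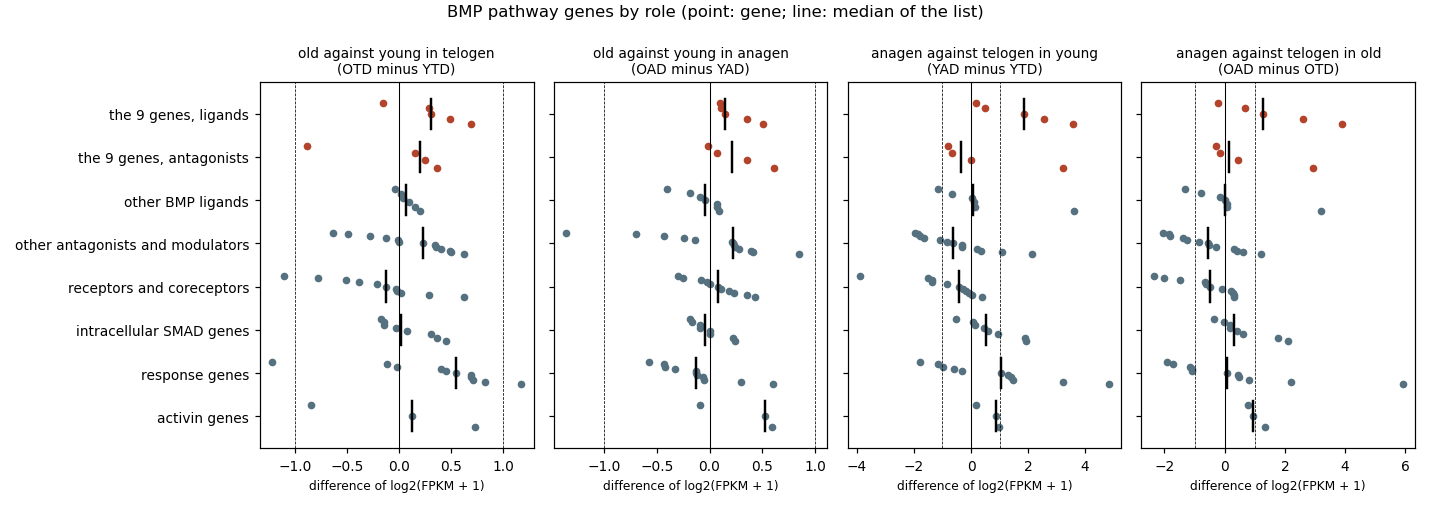
Difference of log2(FPKM + 1) on the horizontal axis for each pathway gene, in 1 panel per comparison, with rows for the lists by role, points for genes and a line for the median of each list; the horizontal scale differs between panels. In the young and old phase panels the medians are 1.87 and 1.28 for the 5 ligands, -0.33 and 0.13 for the 4 antagonists, 0.06 and 0.01 for the other BMP ligands, and -0.62 and -0.57 for the other antagonists and modulators.

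Marker lists of the cell types that the dissected tissue could hold moved with the phase changes. All 8 hair matrix markers were called higher in anagen at both ages, with medians of 4.38 in young and 5.24 in old mice. All 10 hair shaft markers and all 9 inner root sheath markers were called higher as well, and no marker of these 3 lists was at 0 in a library. Of the 10 dermal papilla markers, 6 were called higher and 1 lower in anagen at each age. The changes of 3 in young and 4 in old mice were negative. Lef1, called higher at both ages, is in the hair matrix list as well. All 12 adipocyte markers had negative changes in anagen, with medians of -1.74 in young and -1.4 in old mice, and the medians of the endothelial, macrophage and skeletal muscle lists were negative in both phase comparisons too. The phase changes of Bmp2, Bmp7 and Bambi, 2.55 to 3.89, had the sign of the HF lists and the opposite sign to the adipocyte list. The part of HF cells in the anagen levels of these genes was not tested.

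In telogen all genes of the same HF lists had negative values for OTD against YTD, at medians of -0.93 for the hair matrix, -1.24 for the hair shaft and -0.67 for the inner root sheath. The skeletal muscle list had negative values too (median -0.67). Nog (-0.89) and Bmp7 (-0.16) had that sign. Bmp2 (0.29), Bmp3 (0.3), Bambi (0.36) and Fst (0.25) had the opposite sign. Among these genes only Nog had a counting interval of the fold that excluded 1. Bmp4 and Bmp6 had the sign of the endothelial markers (8 of 8 greater in OTD, median 0.64), the fibroblast and fat progenitor markers (8 of 10, median 0.47) and the smooth muscle, Schwann cell and macrophage lists (medians 0.85, 0.48 and 0.44). The dermal papilla list, whose cells are known to express Nog and Bmp4, had a median of -0.07. The adipocyte list had a median of -0.01, with 6 of 12 higher. The part of these cell types in the age differences was not tested. In anagen, each of 12 adipocyte markers had a greater level in OAD, at a median of 0.31. The HF lists differed there, with medians of -0.2 for the hair matrix, -0.25 for the hair shaft, 0.71 for the inner root sheath (8 of 9 greater in OAD) and 0.26 for the epidermis and outer root sheath.

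**Figure D5:**
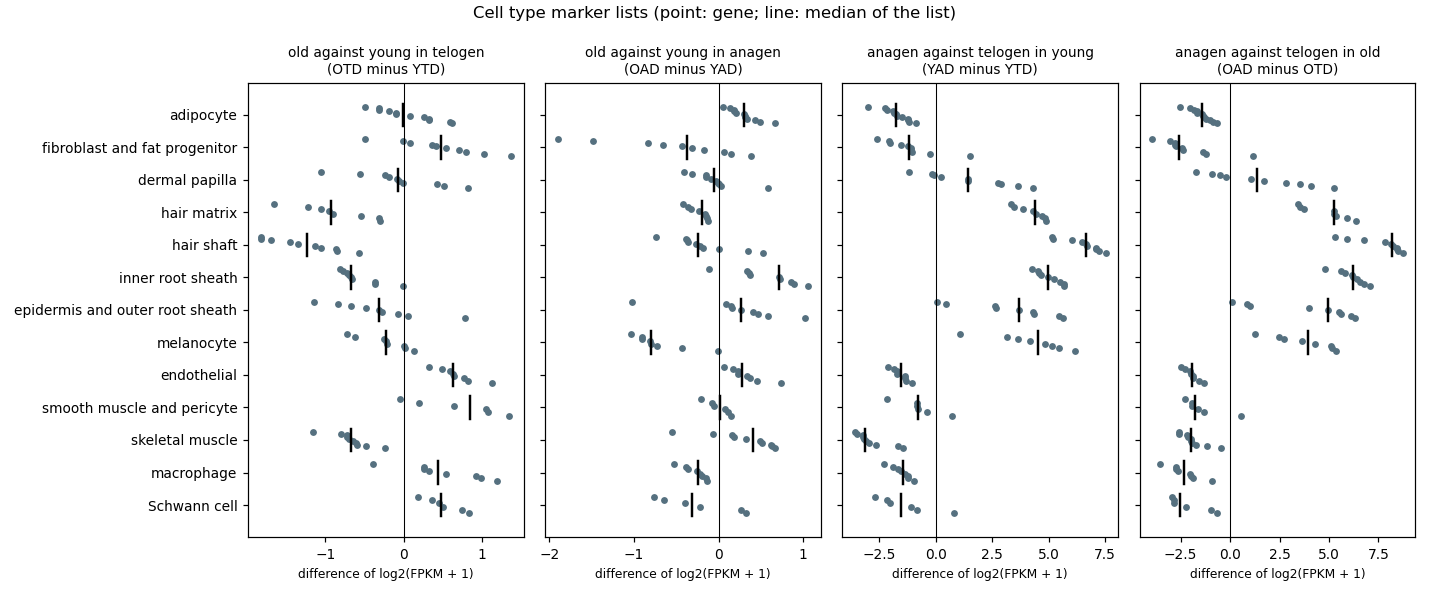
Difference of log2(FPKM + 1) on the horizontal axis for each marker gene, in 1 panel per comparison, with rows for 13 cell type lists, points for genes and a line for the median of each list; the horizontal scale differs between panels. The hair matrix, hair shaft and inner root sheath lists lie far to the right in the phase panels. In the telogen age panel they lie to the left of 0, with a hair matrix median of -0.93. The dermal papilla list lies on both sides of 0 in each of these panels.

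For the 4 genes called between phases, the genes with the most similar pattern were sought among 13560 genes by the Euclidean distance of log2(FPKM + 1) over the 4 libraries after subtracting each gene's mean. Areg, which encodes the growth factor amphiregulin, was nearest to Bmp2 at a distance of 0.101, with 0.553 (OTD), 0.244 (YTD), 7.68 (OAD) and 5.96 (YAD). Galnt6 and Cdr2 followed at 0.104 and 0.119. Nearest to Bmp4 were Enc1 (0.0354), Nuak2 (0.0506) and Pld3 (0.111). Stmn1, which encodes a microtubule regulator of dividing cells, was nearest to Bmp7 at 0.0551, with 22.2 (OTD), 24.2 (YTD), 334 (OAD) and 314 (YAD), followed by Hsd17b14 and Epn3. Spint2, Tubb3 and Hist1h2ag were nearest to Bambi, at 0.0589, 0.121 and 0.146. With 4 points per gene, this likeness describes the libraries only.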

How the data were processed

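RNA-seq libraries of mouse dWAT were made from 4 groups, 1 library each. The authors deposited 1 table per library with FPKM values per gene, a unit that divides fragments by feature length and by mapped fragments. The submitters' processing notes name bcl2fastq, TopHat2 and GRCm38, and versions are not given in the sources used here. Of the listed lengths, 97% were multiples of 3, that is, coding lengths. Symbols came from a table of gene names, which matched 21750 of 22166 Ensembl IDs.

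Groups followed the sample titles. Changes were differences of log2(FPKM + 1), called at a size of at least 1, with no p-value, since no group has a replicate. Depth was estimated from the lowest product of FPKM and length among features of 2000 to 4000 bp, and 95% counting intervals of folds were exact conditional binomial intervals on the rounded fragment estimates, while those of the ligand to antagonist ratio used a Poisson variance. A value under 3 fragments was under the floor, and a fold against it was taken as a lower bound. Scripts were run in Python 3.11.15 with numpy 2.4.6, pandas 2.3.3, scipy 1.17.1 and matplotlib 3.10.9, and were tested on simulated data.

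The 9 genes, the pathway lists and the marker lists were chosen with earlier results of these data known. All 9 genes were named, with pathway genes past the call size at an FPKM of at least 1, a set of pathway genes named in any case (Bmp5, Chrd, Sostdc1, Bmpr1a, Bmpr2, Smad1 and the ID genes), and the 3 genes most like each called one. One gene that this rule names is not reported here. Of 116 markers, 114 were found. Pseudocounts of 0.1 and 0.01, an FPKM filter, a 1.5-fold call, TPM, median-of-ratios scaling, scaling without mitochondrial or without keratin, keratin-associated protein and melanocyte genes, and other definitions of the ratio were tried.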

Additional observations from a re-analysis of the deposited data

Results flagged for a closer look

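Bmp6, Bmp7 and Nog had changes of opposite sign under the same contrast in the other phase or age. With 1 library per group the difference between the contrasts was not tested. Nog had an age difference of -0.89 in telogen and 0.36 in anagen, and a phase difference of -0.82 in young and 0.43 in old mice, all on the log2(FPKM + 1) scale. The YTD level of 4.72 FPKM enters both negative values. The phase difference in young mice was -0.18 under TPM and -0.01 without keratin, keratin-associated protein and melanocyte genes. Relative to the shift of all genes under these scalings it was -0.9 and -0.92. Bmp6 had a phase difference of 0.16 in young and -0.21 in old mice, and the latter was positive under TPM and without keratin, keratin-associated protein and melanocyte genes. Bmp7 had an age difference of -0.16 in telogen and 0.15 in anagen, and the latter was negative under TPM, without mitochondrial genes and without keratin, keratin-associated protein and melanocyte genes.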

How the results depend on the processing

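No paired analysis was possible because each group is 1 library and the labels carry no replicate numbers. The 4 phase calls, Bmp2, Bmp4, Bmp7 and Bambi, held at both ages under all 8 alternatives for calls. With a pseudocount of 0.1, 1 of the 9 genes was called between ages in telogen (Nog, background 12.4%). Of the other pathway genes, 7 were called there and 3 in anagen (background 6.3%). With 0.01 the counts were 3 in telogen (Bmp3, Grem1 and Nog, background 20%) and 1 in anagen (Grem1, background 13.8%). Of the other pathway genes, 8 were called between ages in each phase. Between phases in young mice, 35 of the 52 above 0 were called (background 55.4%). At 1.5-fold, 2 were called in telogen (Bmp4 and Nog, background 16%) and 1 in anagen (Fst, background 4.97%), with 13 and 5 other pathway genes. The log2 balance without Bambi was 1.45 (OTD), 0.61 (YTD), 3.37 (OAD) and 3.84 (YAD), with differences of -0.47 between ages in anagen and 3.22 and 1.92 between phases in young and old mice. Without Fst it was 1.98, 1.01 and 1.17 in OTD, YTD and OAD, and the phase differences were 0.07 and -0.81. Over all listed ligands, antagonists and modulators it turned negative, at -3.16, -3.39, -0.43 and -0.7, with age differences of 0.23 and 0.26 and phase differences of 2.69 and 2.73. As a difference of mean log2(FPKM + 1) it was 0.3, -0.06, 1.23 and 1.24, with phase differences of 1.29 and 0.93. Without Nog, an alternative chosen after seeing the data, it was 1.25, 1.02 and 1.11 in OTD, YTD and OAD, and the differences were 0.22 between ages in telogen and 0.05 between phases in young mice. Leaving out Bmp3 or counting it as an antagonist moved no balance beyond its counting interval. These shifts follow from which genes or which scale the ratio counts. The rough depth estimate and single libraries limit all values, and Grem1 and the telogen levels of Bmp3 rest on few fragments.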
